A study of Rattus norvegicus with 6 samples.

Results

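The collagen hydroxylases and procollagen chaperones are the proteins of the endoplasmic reticulum that modify and fold new procollagen chains. They were followed here through 10 genes chosen by name: P4ha1, P4ha2, P4ha3 and P4hb (prolyl 4-hydroxylase), P3h1 (prolyl 3-hydroxylase), Plod1, Plod2 and Plod3 (lysyl hydroxylases), and the chaperones Serpinh1 and Fkbp10. All 10 were found, among 33300 genes of the deposited table, with 1 row each. RNA was sequenced from tendon stem/progenitor cells of the rat, the cells in tendon that can form new tendon cells, at day 7. For 3 libraries F12 medium held 500 uM NAC (N-acetyl-L-cysteine, an antioxidant and source of cysteine), and for the other 3 (Control) it held none. The submitters' labels describe all 6 libraries as tendon tissue, mesenchymal stem cells and tenogenic differentiation, and they do not state whether replicates are separate cultures or animals. The p-values therefore measure only the spread between these samples, which may be technical. The Control columns carry only a letter and a number and were assigned to Control by elimination.

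Prolyl 4-hydroxylase hydroxylates proline in the repeats of the collagen chain, which lets the triple helix hold at body temperature. Its catalytic α subunit comes from P4ha1, P4ha2 or P4ha3, and its β subunit is protein disulfide isomerase, encoded by P4hb, which also acts on its own as a disulfide isomerase and chaperone. P3h1 forms a complex with cartilage-associated protein (Crtap) and cyclophilin B (Ppib) and hydroxylates a few prolines at another position, while the lysyl hydroxylases make the hydroxylysines used for glycosylation and for crosslinks. The hydroxylases are oxygenases that need iron, 2-oxoglutarate, oxygen and ascorbate. Serpinh1 encodes HSP47, a collagen-specific chaperone that binds the folded triple helix, and Fkbp10 encodes FKBP65, a peptidyl-prolyl isomerase that works with lysyl hydroxylase 2, the product of Plod2. Type I collagen is the main protein of tendon, and mutations in several of these genes cause brittle bone or other connective tissue disorders in humans.

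The 4 promoter stretches printed here are shown because 8 of the 10 genes rose together and because Serpinh1 is known as a heat shock target and P4ha1, P4ha2 and Plod2 as hypoxia targets. The 4 motifs searched were chosen after the sequences and the results had been seen. RefSeq promoter sequences (GRCr8, 250 bases before to 50 after the start) matched 9 of the 10 genes, Fkbp10 being the one without an entry. The first is the Serpinh1 promoter (chr1:163062977-163063226, minus strand), where capitals mark a match to the heat shock element (TTC, any 2 bases, GAA, any 2 bases, TTC). The second is Plod2 (chr8:101964068-101964317, plus strand), where capitals mark 1 heat shock element and 2 copies of the hypoxia response core ACGTG, all on the reverse strand (ACGTG there reads CACGT). The third is P4ha2 (chr10:38743644-38743893, plus strand), where capitals mark ACGTG at 2 places. The fourth is a 30-base window of P4ha1 (chr20:27845045-27845074, plus strand) after the start, with 1 reverse-strand ACGTG at 12 to 16. All are written 5′ to 3′ on the gene's own strand.
Serpinh1: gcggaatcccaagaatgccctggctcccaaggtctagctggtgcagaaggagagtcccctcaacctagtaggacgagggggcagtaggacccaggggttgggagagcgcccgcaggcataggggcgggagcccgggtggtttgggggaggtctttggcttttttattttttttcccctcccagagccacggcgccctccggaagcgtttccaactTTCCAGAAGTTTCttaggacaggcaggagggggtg
Plod2: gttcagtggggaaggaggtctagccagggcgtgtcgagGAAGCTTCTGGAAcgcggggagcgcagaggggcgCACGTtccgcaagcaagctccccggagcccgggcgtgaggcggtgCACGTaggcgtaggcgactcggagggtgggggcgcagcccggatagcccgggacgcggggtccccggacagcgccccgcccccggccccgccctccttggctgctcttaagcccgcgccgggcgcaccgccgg
P4ha2: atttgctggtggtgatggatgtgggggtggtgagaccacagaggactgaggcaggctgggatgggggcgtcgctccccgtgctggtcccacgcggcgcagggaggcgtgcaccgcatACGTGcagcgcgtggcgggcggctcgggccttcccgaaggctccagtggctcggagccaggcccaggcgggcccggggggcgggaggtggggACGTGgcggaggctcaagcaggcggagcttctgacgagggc
P4ha1: tgtgactgagcgCACGTagcgagagctgtg

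Both strands were searched. The heat shock element lay at -35 to -23 from the start of Serpinh1 and at -212 to -200 in Plod2, and so in 2 of 9 promoters of the group (22.2%), against 0.736% of 27457 rat promoters of the same length. ACGTG was present in 3 of 9 (33.3%), P4ha1 (at 12 to 16, after the start), P4ha2 and Plod2, against 19.7% of all promoters. The box CCAAT was present in P3h1 and P4hb, 2 of 9 (22.2%) against 37.7% of all. No match overlapped another. The full endoplasmic reticulum stress element, CCAAT followed by 9 bases and CCACG, was found in none of the 9 and in 0.0765% of all promoters. These are matches of letters within a short window and not measured binding sites. Because the motifs were chosen with the sequences and the results known, no enrichment is read from these shares.

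The genes are spread over 6 chromosomes, with coordinates as deposited and on a build that no source used here gives. Serpinh1 (ENSRNOG00000016831; chromosome 1, 164301010 to 164308317, minus strand) and P4ha3 (ENSRNOG00000017118; chromosome 1, 165295847 to 165330322, plus strand) lie 987530 bases apart with 24 listed genes between them. On chromosome 10 lie P4ha2 (ENSRNOG00000033663; 39435227 to 39464188), Fkbp10 (ENSRNOG00000015941; 88326080 to 88338207) and P4hb (ENSRNOG00000036689; 109736458 to 109747987). On chromosome 5 lie P3h1 (ENSRNOG00000053991; 138279506 to 138294262) and Plod1 (ENSRNOG00000007763; 164720587 to 164747083). Plod2 (ENSRNOG00000030183) is on chromosome 8 (99977334 to 100059736), Plod3 (ENSRNOG00000001417) on chromosome 12 (22716423 to 22726982) and P4ha1 (ENSRNOG00000050655) on chromosome 20 (28920616 to 28971966). All 10 are listed as protein-coding. Plod3 overlaps Znhit1 on the opposite strand by 340 bases. Znhit1 stood at 14.3 FPKM in NAC and 13.5 FPKM in Control, and since no source used here gives the strand setting, reads of the shared stretch cannot be told apart.

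Values are FPKM, fragments per kilobase of gene length, and the length term lets levels be set beside each other across genes. The authors' scaling total was 0.909 to 0.925 of the recovered reads in NAC and 1.02 to 1.04 in Control, so the scaling differed between the groups. The recovered reads behind the values summed to 13624097 to 14941949 per library in NAC and 12487215 to 14079556 in Control. Each of the 10 genes had at least 1231 reads in every NAC library and at least 1252 in every Control library, so none was near the detection floor of 3 reads. The second principal component (20.5% of the variance) set Control 2 apart, at -21.8 against -4.23 to 10.3 for the other libraries. Tendon cell markers were all measured (8 of 8 at a mean of at least 1 FPKM), with a summed level of 12360 to 13139 FPKM in NAC and 8503 to 8588 FPKM in Control. Of these 8 the matrix genes Col1a1 (log2 fold change 1.00), Dcn (0.32) and Lox (0.24) were called higher, and Thbs4 (0.47), Tnmd (0.56), Fmod (0.25), Scx (-0.094) and Mkx (-0.38) were not called. Among leukocyte markers 1 of 8 reached 1 FPKM and Ptprc, Cd3e and Laptm5 were at 0 in all 6 libraries, with a summed level of 14.4 to 17.3 FPKM in NAC and 13.7 to 14.7 in Control. Endothelial markers summed to 0.760 to 0.769 FPKM in NAC and 0.424 to 0.750 in Control, with Cdh5 and Emcn at 0. Mural cell markers summed to 42.7 to 45.0 FPKM in NAC and 43.6 to 48.9 in Control. Among them Myh11, a smooth muscle myosin gene, fell to 17.2 ± 1.40 FPKM in NAC, against 21.9 ± 0.486 FPKM in Control (log2 fold change -0.33, limma adjusted p = 0.0269), and it was the one gene called in the lists for other cell types. Sums for Schwann cell and nerve markers were 47.8 to 53.2 in NAC and 47.1 to 55.1 in Control (Sox10 and Cdh19 at 0), and those for skeletal muscle markers 29.5 to 32.4 in NAC and 27.6 to 30.7 in Control (Pax7 at 0). Epithelial markers reached 0.101 FPKM in sum and red blood cell markers 0.415. The part of these markers in the results on the 10 genes was not tested.

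Most of the group was higher with NAC, by a modest amount. Of the 10 genes 8 were higher with NAC, none was lower and P4ha2 and P4ha3 did not pass the test (limma on log2(FPKM + 1), two-sided, Benjamini-Hochberg adjusted p under 0.05 over 12733 genes). Among all tested genes 6.08% were called higher and 2.72% lower (8.8% in either direction). The 10 genes and the lists further on were chosen with earlier results of these data known. Their counts beside these shares are therefore a description and not an independent test. The log2 fold changes of the 10 had a median of 0.33, against -0.0063 over all tested genes. The 3 NAC values lay wholly above the 3 Control values in 9 of the 10 genes, which was so in 16.7% of all tested genes, with 15.9% wholly lower and 32.6% apart in either direction. In these bulk samples a different share of collagen-making cells and a different amount of RNA per cell cannot be told apart.

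**Figure D1:**
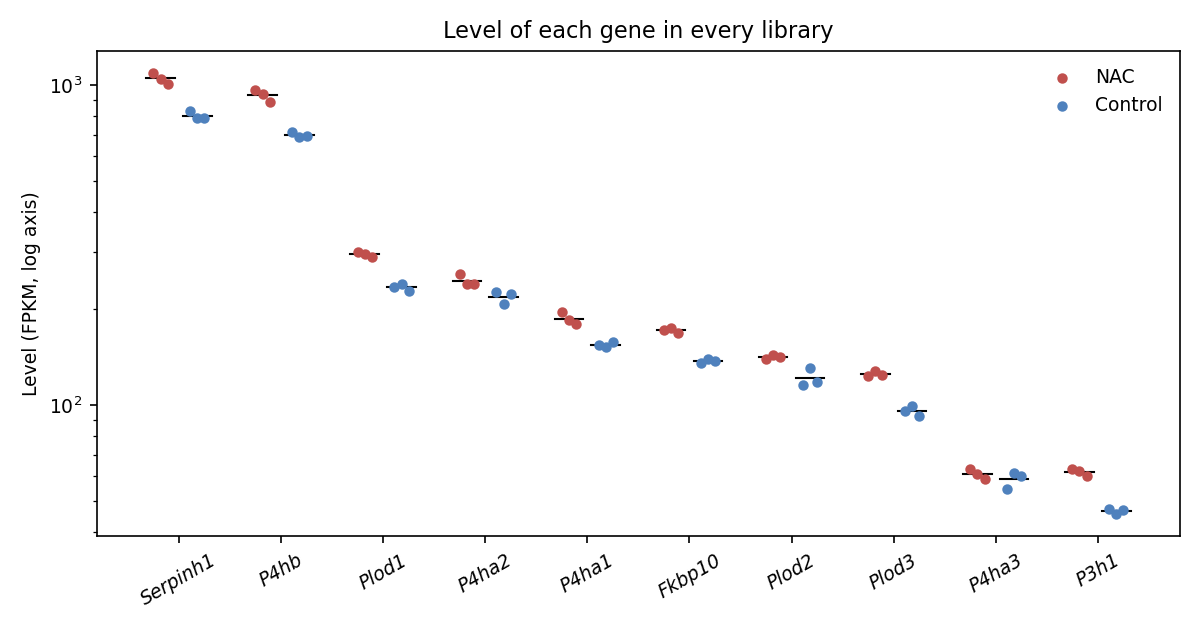
Level of each gene in FPKM (log axis) in the 3 NAC and 3 Control libraries, one point per library, with the group mean as a black line and the genes ordered by mean level. NAC points lie above all Control points in each gene except P4ha3, whose groups overlap.

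Serpinh1, the HSP47 gene, was the most abundant of the group and ranked number 42 among all genes by mean level. It stood at 1091, 1043 and 1009.8 FPKM in NAC 1 to 3, against 827, 789 and 791 FPKM in Control 1 to 3. The groups were well apart, and the means were 1048 ± 41.0 FPKM in NAC and 802 ± 21.6 FPKM in Control (SD, n = 3 each). The log2 fold change was 0.38 ± 0.0426 (SE, limma adjusted p = 0.00391). When every library was forced to 1 distribution (quantile normalization) the value was 0.12 and the call ended (limma adjusted p = 0.141, lowest in any setting 2.74e-04).

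Fkbp10, the FKBP65 gene, had the smallest standard error of the 10. It stood at 172, 173 and 168 FPKM in NAC and at 136, 139 and 137 FPKM in Control, with no overlap. The means were 171 ± 2.57 FPKM in NAC and 137 ± 1.67 FPKM in Control (SD, n = 3 each), and the log2 fold change was 0.32 ± 0.0318 (SE, limma adjusted p = 0.00301).

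P4hb, the β subunit of prolyl 4-hydroxylase, had the largest rise of the 10 on the log2 scale. It stood at 968, 936 and 883 FPKM in NAC, against 712, 688 and 694 FPKM in Control, and every NAC library was higher. The means were 929 ± 43.1 FPKM in NAC and 698 ± 12.5 FPKM in Control (SD, n = 3 each), and the log2 fold change was 0.41 ± 0.0437 (SE, limma adjusted p = 0.00365). Its call also ended under quantile normalization (0.21, limma adjusted p = 0.0570, lowest in any setting 2.09e-04).

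Of the α subunits, which hold the catalytic site, P4ha1 rose and P4ha2 and P4ha3 did not pass the test. P4ha1 stood at 195, 184 and 179 FPKM in NAC and at 154, 152 and 157 FPKM in Control. The groups did not overlap, and it rose by 0.27 ± 0.0415 (log2, SE, limma adjusted p = 0.0139). That call ended without NAC 1 (0.23), NAC 2 (0.27) or Control 1 (0.27), with library totals (0.094) and with quantile normalization (0.15). P4ha2, the most abundant α subunit, stood at 257, 239 and 239 FPKM in NAC and at 225, 206 and 223 FPKM in Control. The NAC values were again all higher, by a log2 fold change of 0.17 (95% interval 0.051 to 0.29), but the test was not passed (limma adjusted p = 0.0850, and 0.0441 with voom on recovered reads, range over all settings 0.0441 to 0.947). P4ha3, the least abundant α subunit, stood at 63.0, 60.8 and 58.9 FPKM in NAC and at 54.8, 61.5 and 59.9 FPKM in Control. These groups overlapped, and the log2 fold change was 0.053 with a 95% interval of -0.075 to 0.18 (limma adjusted p = 0.579, range over all settings 0.110 to 0.970). With 1 library left out it was 0.0044 without Control 1, 0.029 without NAC 1, 0.053 without NAC 2, 0.068 without Control 3, 0.077 without NAC 3 and 0.086 without Control 2.

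The level of the β subunit relative to the 3 α subunits together lay higher in every NAC library than in any Control library. The ratios and shares within the family were chosen after the data had been seen, 18 of them in all. P4hb was 1.88, 1.93 and 1.85 times the summed P4ha level in NAC, against 1.64, 1.64 and 1.58 times in Control, with no overlap. Within the α subunits the share of P4ha1 was 37.9%, 38.0% and 37.6% in NAC and 35.5%, 36.2% and 35.7% in Control, also with no overlap. The share of P4ha3 was 12.4 ± 0.169% in NAC and 13.6 ± 1.02% in Control, and that of P4ha2 was 49.8 ± 0.362% in NAC and 50.5 ± 1.33% in Control (SD, n = 3 each), where the P4ha2 ranges overlapped. The log2 ratio of P4ha3 to P4ha1 was lower in NAC by 0.22, at -1.61 ± 0.0165 in NAC and -1.40 ± 0.0954 in Control. With 3 libraries against 3 the smallest exact two-sided permutation p is 0.10, which each of these ratios without overlap gave (0.12 adjusted over 18 measures), so none could pass 0.05. Ratios within a library do not change when the whole library is multiplied by a single factor. Quantile normalization is not such a scaling and moves the genes of a library by unequal amounts.

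P3h1, the prolyl 3-hydroxylase, was the least abundant of the group in Control (46.6 FPKM) and had the lowest adjusted p of the 10. It stood at 63.0, 62.4 and 60.1 FPKM in NAC, against 47.2, 45.6 and 47.0 FPKM in Control. The groups did not overlap, and the log2 fold change was 0.40 ± 0.0378 (SE, limma adjusted p = 0.00242), called under every setting tried (0.23 to 0.42). Its partners in the complex, which were named here after their values had been seen, had higher means but missed the threshold. Crtap was at 45.0 ± 5.30 FPKM in NAC and 32.3 ± 4.75 FPKM in Control (SD, n = 3 each; limma adjusted p = 0.0597). Ppib was at 391 ± 11.98 FPKM in NAC and 339 ± 18.7 FPKM in Control (limma adjusted p = 0.0517). The ratio of P3h1 to Crtap was 1.38 ± 0.129 in NAC and 1.46 ± 0.198 in Control with overlapping values, while that of P3h1 to Ppib was 0.158 ± 0.00184 in NAC and 0.138 ± 0.00513 in Control without overlap.

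The 3 lysyl hydroxylases rose, with the call of Plod2 close to the threshold. Plod1, the most abundant of them, stood at 299.7, 297 and 289.8 FPKM in NAC and at 234, 239 and 228 FPKM in Control, and rose by 0.34 ± 0.0345 (log2, SE; limma adjusted p = 0.00302). Plod3, which also carries glycosyltransferase activity, stood at 123, 128 and 124 FPKM in NAC and at 96.0, 99.0 and 92.2 FPKM in Control, and rose by 0.38 ± 0.0393 (log2, SE; limma adjusted p = 0.00316). Neither had overlapping groups, and both were called under every setting tried.

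Plod2, the telopeptide lysyl hydroxylase whose product sets the kind of crosslink, was at 139, 144 and 142 FPKM in NAC and at 116, 130.3 and 118 FPKM in Control. Control 2 was the high Control library, but still below every NAC library. The log2 fold change was 0.22 ± 0.0508 (SE, limma adjusted p = 0.0441, between 0.00874 and 0.434 in other settings). The call ended in 10 of 16 other settings, among them without NAC 1 (0.23), NAC 2 (0.21), NAC 3 (0.22), Control 1 (0.19) or Control 3 (0.20), with library totals (0.049) and after quantile normalization (0.13). Without Control 2 the value was 0.27 (adjusted p = 0.00874). As a share of the 3 Plod genes Plod2 was 24.8%, 25.3% and 25.5% in NAC and 26.0%, 27.9% and 26.9% in Control, without overlap, while Plod3 was 22.2 ± 0.278% in NAC and 21.2 ± 0.240% in Control (SD, n = 3 each).

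The order of the levels was nearly the same in both groups. In NAC and in Control it ran from Serpinh1 through P4hb, Plod1, P4ha2, P4ha1, Fkbp10 and Plod2 to Plod3, each above the next without overlap of the 3 values. The last pair changed places: P3h1 (61.8 ± 1.56 FPKM) and P4ha3 (60.9 ± 2.06 FPKM) overlapped in NAC, whereas in Control P4ha3 (58.7 ± 3.50 FPKM) lay above P3h1 (46.6 ± 0.903 FPKM) without overlap (SD, n = 3 each). The summed level of the 10 genes was 3264 ± 109 FPKM in NAC and 2565 ± 31.5 FPKM in Control. They took 0.732 ± 0.0184% of recovered reads in NAC and 0.650 ± 0.0111% in Control.

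The scaling of libraries touches all of these values. As deposited, the median over tested genes was -0.0063 (log2), and scaling to the total of recovered reads moved it to -0.16. Under library totals 6 of the 10 genes were still called higher (P4hb, P3h1, Plod1, Plod3, Serpinh1 and Fkbp10), P4ha2 turned to -0.0052 and P4ha3 to -0.12, and the median of the 10 was 0.16. Relative to the median of all genes the median of the 10 was 0.31 higher under library totals, against 0.34 as deposited and 0.19 under quantile normalization, where 4 were called. Of all tested genes 3.67% were called higher under library totals, against 6.08% as deposited and 4.45% under quantile normalization. Of all called genes 11.1% were higher under library totals, against 69.1% as deposited and 58.2% under quantile normalization.

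**Figure D2:**
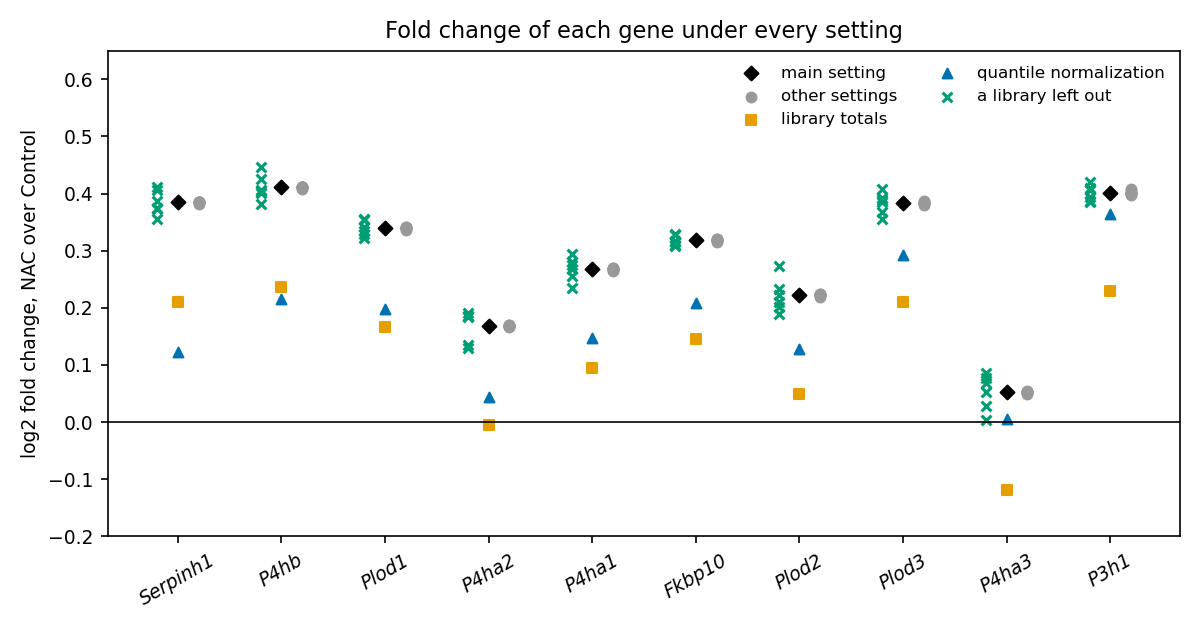
Log2 fold change (NAC over Control) of each gene under the main setting, library totals, quantile normalization, other settings and with 1 library left out, one symbol per setting. The values of P4ha2 and P4ha3 turn below 0 with library totals (-0.0052 and -0.12), while the other 8 genes stay above 0 under every setting.

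Of 19 listed collagen chains, the substrates of these proteins, 18 were higher and none lower, beside 6.08% and 2.72% of all tested genes. Their median log2 fold change was 0.76, against 0.33 for the 10 genes, and the difference between the lists was not tested. Col1a1, the α1 chain of type I collagen, was at 5453 ± 253 FPKM in NAC and 2731 ± 124 FPKM in Control (SD, n = 3 each), and Col6a3, a chain of microfibrillar collagen VI, had a log2 fold change of 1.30. The Col6a3 row is listed as a processed transcript and not as protein-coding. Its mean over the 6 libraries was 31.6 FPKM, against 436 for Col6a1 (0.54) and 475 for Col6a2 (0.56). The basement membrane chains Col4a1 and Col4a2 (both 0.96) and Col16a1 (0.75) are named with them as the 5 chains of lowest adjusted p, and by log2 fold change Col15a1 (1.12) and Col18a1 (1.00) stood next after Col6a3. Col1a2, the α2 chain of type I collagen, rose to 800.2 ± 57.0 FPKM in NAC against 601 ± 77.7 FPKM in Control (log2 fold change 0.42, limma adjusted p = 0.0458), as did Col3a1 of type III collagen (0.33, adjusted p = 0.0151). The Col1a2 call ended in 9 of 16 other settings, among them without NAC 1, NAC 2, NAC 3, Control 2 or Control 3 (0.36 to 0.52 over the 6 libraries left out), and that of Col3a1 without NAC 1, NAC 2 or Control 1 (0.28 to 0.36), and both ended with library totals and with quantile normalization.

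**Figure D3:**
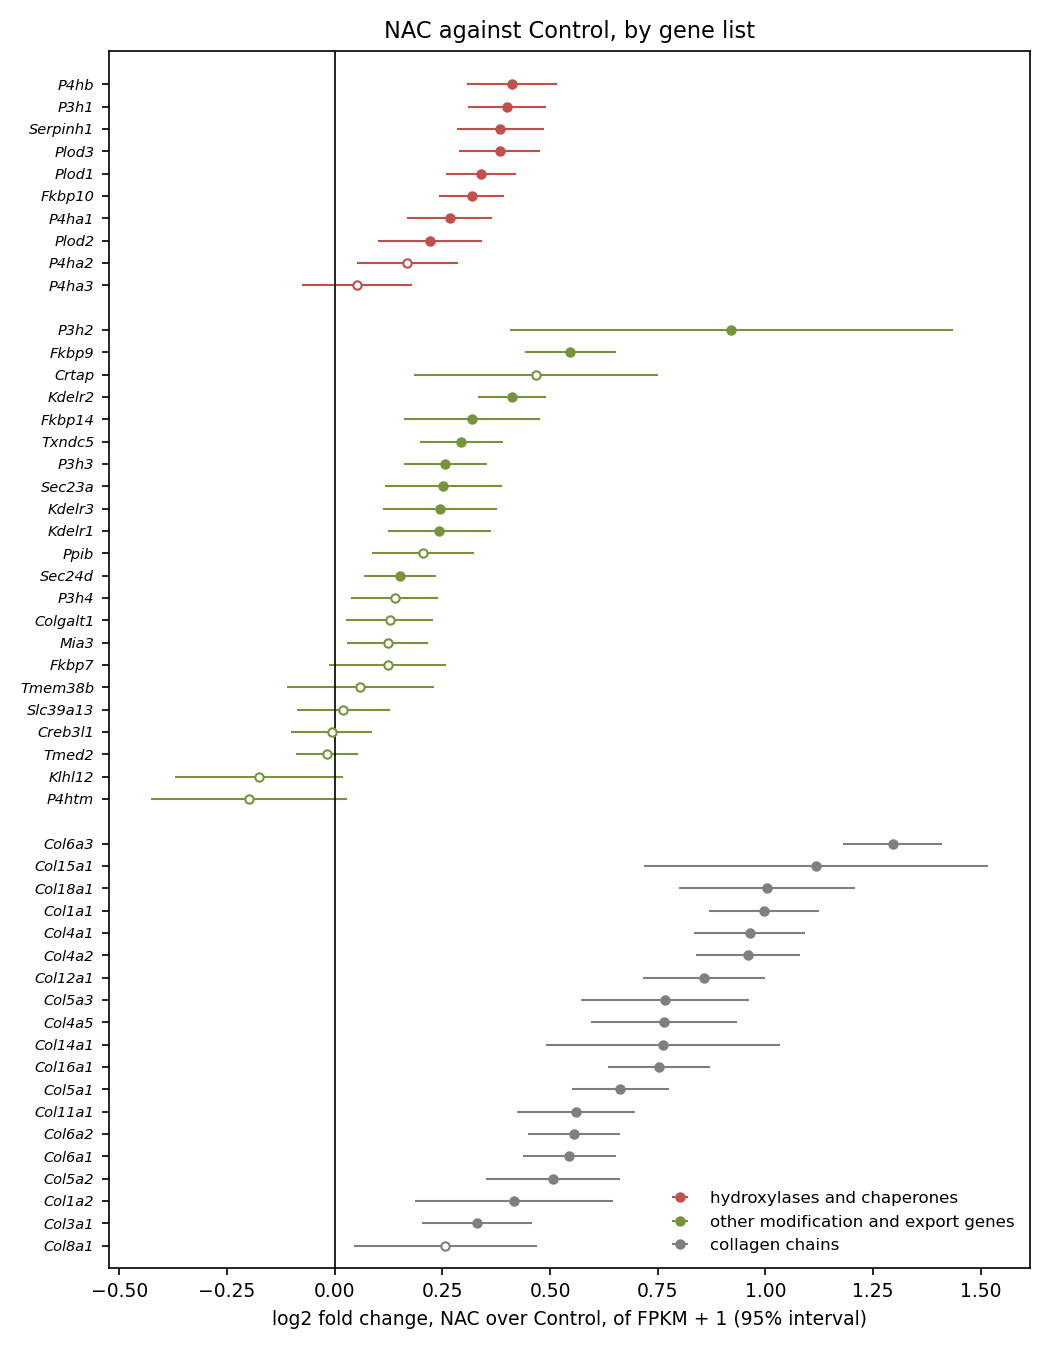
Log2 fold change of FPKM + 1 (NAC over Control) with its 95% interval for the 10 hydroxylase and chaperone genes, 22 other genes of procollagen modification and export, and 19 collagen chains, filled where the limma adjusted p is under 0.05. The collagen chains reach 1.30 (Col6a3, listed as a processed transcript), while the 10 genes lie between 0.053 and 0.41.

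Each gene was also set against Col1a1 in the same library. All 10 were lower with NAC without overlap, as were 95% of all tested genes, and nothing about the 10 is read from that count. Serpinh1 stood at 192 ± 1.39 per 1000 units of Col1a1 FPKM in NAC and at 294 ± 12.3 in Control, and P4hb at 170.4 ± 2.27 in NAC and 256 ± 9.66 in Control (SD, n = 3 each). Fkbp10 stood at 31.4 ± 1.23 in NAC and 50.3 ± 2.90 in Control. On the log2 scale the difference ran from -0.94 for P4ha3 and -0.83 for P4ha2 to -0.60 for P3h1 and -0.59 for P4hb, against a median of -1.003 over all tested genes. The exact two-sided permutation p was 0.10 for each of the 10, the smallest that 3 against 3 libraries allow.

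That relation depended on the chain, and Col1a2 and Col3a1 were tried after the data had been seen. Against Col1a2 the differences were small, from -0.36 for P4ha3 to -0.0054 for P4hb. The groups overlapped for 9 of the 10 genes, all but P4ha2, whereas 61.1% of all tested genes were lower without overlap (median difference -0.42). Control 1 had the lowest Control ratio for each of the 10, with Col1a2 at 691 FPKM there against 564 and 549 FPKM in Control 2 and Control 3. Against Col3a1 5 of the 10 turned positive, with P4hb at 0.080, and 7 overlapped. There P4ha2 and P4ha3 were lower without overlap, as were 67.1% of all tested genes, and P4hb was higher, as were 1.99%. P4ha2 was lower against each of the 3 chains without overlap (-0.83 against Col1a1, -0.25 against Col1a2 and -0.16 against Col3a1). Against the summed level of Col1a1, Col1a2, Col3a1, Col5a1 and Col5a2 the difference ran from -0.73 to -0.37 and all 10 were lower without overlap, as were 91.9% of all tested genes (median difference -0.79).

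**Figure D4:**
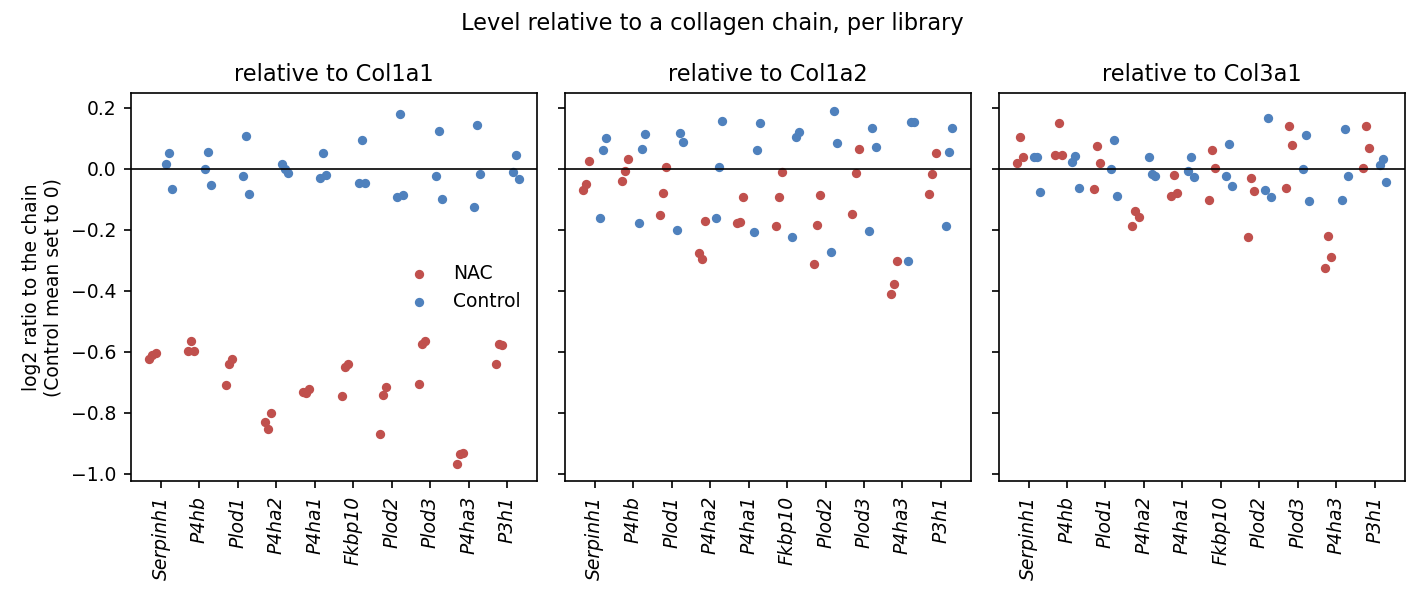
Log2 ratio of each gene to Col1a1, Col1a2 or Col3a1 within a library, with the Control mean of each gene set to 0, for 3 NAC libraries (left of each position) and 3 Control libraries. NAC points lie below all Control points in every gene against Col1a1 but overlap them in 9 genes against Col1a2 and in 7 against Col3a1; of all tested genes 95% lie lower against Col1a1.

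Among other genes of procollagen modification and export, 22 of 24 listed were tested. Of these 10 were higher and none lower, beside 6.08% and 2.72% of all tested genes. The median log2 fold change of the list was 0.18. The count of 10 became 5 without NAC 3 or Control 1, 4 without NAC 1 or Control 3 and 3 without NAC 2. With any 1 of these libraries left out 2.07% to 3.58% of all tested genes were called higher. With library totals 3 of the list were higher and 5 lower. Of all tested genes 3.67% were called higher and 29.2% lower under library totals. Fkbp9, a resident isomerase of the endoplasmic reticulum, was at 264 ± 12.8 FPKM in NAC and 180.2 ± 3.51 FPKM in Control (log2 fold change 0.55, limma adjusted p = 0.00133). Kdelr2, a receptor that returns escaped resident proteins such as HSP47 to the endoplasmic reticulum, was at 100.02 ± 0.978 FPKM in NAC and 74.9 ± 1.31 FPKM in Control (0.41, adjusted p = 0.00126). Its relative Kdelr1 (0.24), the disulfide isomerase family member Txndc5 (0.29) and P3h3, a further prolyl 3-hydroxylase gene (0.26), also rose. Kdelr1 lost its call in 10 of 16 other settings (without any library other than Control 2 among them), P3h3 without NAC 1 or NAC 2, and these 3 genes lost it with library totals and with quantile normalization. Among the called genes P3h2, named after its values had been seen, had the largest log2 fold change of the list (0.92, limma adjusted p = 0.0470). Its level was low, at 2.73 ± 0.738 FPKM in NAC and 0.977 ± 0.454 FPKM in Control. The related P3h4 was not called (0.14, limma adjusted p = 0.0916). Colgalt2 was at 0 in all libraries and Mia2 was below the filter.

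The shared cofactors and the wider enzyme class were followed in further lists, whose counts stand beside 6.08% higher and 2.72% lower among all tested genes. Of 18 tested genes for other 2-oxoglutarate dependent oxygenases 3 rose and 2 fell (median log2 fold change -0.0069). The risers were Asph, the aspartate hydroxylase of the endoplasmic reticulum (0.34), Ogfod3 (0.41) and Egln3, a HIF prolyl hydroxylase (0.42), while the histone demethylases Kdm5b (-0.19) and Kdm3a (-0.26) fell. Leaving out 1 library ended the call of Asph (NAC 1, NAC 2 or Control 1), Ogfod3 (NAC 2, Control 1 or Control 3) and Egln3 (NAC 1, NAC 3, Control 1 or Control 3). The calls of Kdm5b and Kdm3a ended without any library other than Control 2, and with library totals 8 genes of the list were lower, in a setting where 29.2% of all tested genes were. In the list for ascorbate, iron and 2-oxoglutarate supply 1 of 11 tested genes rose and 1 fell (median 0.015), and without Control 2 there were 2 that rose. The mitochondrial isocitrate dehydrogenase Idh2 was at 67.0 ± 0.217 FPKM in NAC and 46.7 ± 1.81 FPKM in Control (0.51, limma adjusted p = 0.00116), and the metal transporter Slc39a14 fell to 57.9 ± 0.753 FPKM in NAC, against 73.2 ± 4.15 FPKM in Control (adjusted p = 0.0108, lost without NAC 1 or NAC 2).

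Of 18 tested HIF target genes other than the 10, 4 rose and 1 fell, beside 6.08% and 2.72% of all tested genes, with a median log2 fold change of 0.054. Carbonic anhydrase 9 (Car9, 0.36), Pfkfb3, a glycolysis regulator (0.30), Egln3 (0.42) and Adm, which encodes adrenomedullin (0.29), rose, and Kdm3a fell (-0.26). The Car9 call ended without NAC 2, that of Pfkfb3 without NAC 1, NAC 2 or Control 1, and that of Adm without any library other than Control 2. The 4 became 1 without NAC 1, NAC 2 or Control 1 and 2 without NAC 3 or Control 3. With any 1 of these libraries left out 2.07% to 3.58% of all tested genes were called higher. With library totals 2 of the HIF targets were higher and 5 lower (3.67% and 29.2% of all tested genes).

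Across the 6 libraries the profiles of most of the 10 genes were alike. The distance of each gene's standardized log2 profile from the mean profile of the 10 (root mean square, in standard deviations) was 0.143 to 0.241 for 7 of them, and larger for Plod2 (0.426), P4ha2 (0.515) and P4ha3 (0.920). By the same measure the tested genes nearest to that mean profile were Col5a1, a chain of type V collagen (0.0925), Rbpj, the DNA-binding partner of Notch (0.0977), Cenpf, a kinetochore gene (0.102), the lysosomal mannosidase gene Manba (0.106) and Cdhr4, a cadherin-related gene (0.111). Of these Cenpf did not pass the test (limma adjusted p = 0.0582), and the Manba call ended without NAC 1, NAC 2, Control 1 or Control 3. The mean profile includes each of the 10 genes, and still these outside genes lay nearer to it than any of the 10. The likeness is therefore not particular to the 10, and no share of all tested genes is given beside it. It is a description over 6 libraries that share the contrast between the groups.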

How the data were processed

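There were 6 RNA-seq libraries, 3 NAC and 3 Control, prepared from total RNA with the SMARTER kit per the labels' protocols. The deposited values are FPKM in a single table. The aligner, counter, strand setting and scaling total were not stated in any source used here. The submitters' processing notes name GRCm38 and mm10, mouse builds, while gene identifiers are those of rat. NAC columns carry their sample's group and number; the columns headed N were taken as Control by elimination.

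Multiplied by gene length, the FPKM values of a library were whole multiples of one unit (100% of values within 0.01), from which reads were recovered. The authors' scaling total was 0.909 to 0.925 of these reads in NAC and 1.02 to 1.04 in Control. The floor of 3 reads covers counting error alone. Tests used the 12733 genes averaging 1 FPKM or more, on log2(FPKM + 1), a scale that understates changes of low genes, with limma 3.58.1 in R 4.3.3 (eBayes with trend, two-sided, group only). The procedure was tested on simulated data. The 10 genes and the lists were chosen with earlier results of these data known. Named genes were all 10, up to 5 called genes of each list by lowest adjusted p, Col1a1, Col1a2, Col3a1 and the 5 nearest profiles. Within groups, libraries were not duplicates (chi-square of reads over degrees of freedom 3.71 to 9.72). Figures used Python 3.11.15 and matplotlib 3.10.9.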

Additional observations from a re-analysis of the deposited data

How the results depend on the processing

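The count of 8 higher genes among the 10 was 6 to 9 under every setting except quantile normalization, where it was 4. It was 6 to 8 with 1 library left out, and none was called lower under any setting. Of all tested genes 2.07% (without NAC 2) to 8.88% (mean FPKM of at least 5) were called higher, and 4.45% with quantile normalization. P3h1, Plod1, Plod3 and Fkbp10 were called under all 17 settings. Library totals turned P4ha2 to -0.0052 and P4ha3 to -0.12 and moved the all-gene median to -0.16. The replicate numbers did not pair the libraries (correlation of deviations 0.063, 0.059 and -0.050); with the replicate block 466 genes were called higher and 110 lower against 774 and 346, and 7 of the 10.

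Over all tested genes 467 were higher and 3722 lower with library totals (11.1% higher, against 69.1% as deposited and 58.2% with quantile normalization), 207 were lower with no filter, 206 lower with no trend, and 529 lower with voom on recovered reads. With 1 library left out 264 to 859 were higher and 51 to 347 lower.

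Of the other modification and export genes (10 higher, 0 lower) 5 were higher without a filter, 4 without a trend, 3 with library totals (and 5 lower), 3 with quantile normalization, and 3 to 7 with 1 library left out. Of the other oxygenases (3 and 2) 1 was higher and 0 lower with the replicate block, 1 lower without a filter, 8 lower with library totals and 0 lower without a trend, with 0 to 3 higher and 0 to 2 lower when 1 library was left out. Of the cofactor supply genes 2 were lower with library totals, with 1 to 2 higher and 0 to 1 lower when 1 library was left out. Of the HIF targets (4 and 1) 2 were higher and 5 lower with library totals, 1 higher and 0 lower with the replicate block, 2 lower with quantile normalization, and 0 lower without a filter or without a trend, with 1 to 5 higher and 0 to 1 lower when 1 library was left out. The cause was not tested.

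The log2 difference relative to a collagen chain changed with the chain. With the 5 summed fibrillar chains it was -0.52 for P4ha1, -0.61 for P4ha2, -0.73 for P4ha3, -0.37 for P4hb, -0.38 for P3h1, -0.44 for Plod1, -0.56 for Plod2, -0.40 for Plod3, -0.40 for Serpinh1 and -0.46 for Fkbp10. With Col1a2, an alternative chosen after the data were seen, it was -0.15, -0.25, -0.36, -0.0054, -0.016, -0.077, -0.19, -0.034, -0.032 and -0.098 for these genes in that order. With Col3a1, also chosen after the data were seen, it was -0.064, -0.16, -0.28, 0.080, 0.069, 0.0085, -0.11, 0.052, 0.053 and -0.013. With 1 library left out the difference to Col1a1 stayed between -1.01 and -0.55.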
